A study of Equus caballus with 2 samples.

Results

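Sarcoids are common fibroblastic tumours of equine skin, linked to infection with bovine papillomaviruses. DNA methylation in a sarcoid was compared here with that in skin in fixed windows of 1 Mb, and this account covers the windows in which the mean level was clearly lower in the tumour. The data are reduced representation bisulfite sequencing (RRBS) of 1 sarcoid library and 1 library of skin taken away from the tumour, both from tissue DNA of horse 1. Neither label gives the age, the treatment or the cell makeup of the tissue, and each sample is a mixture of cells, so a different share of cell types and a different level per cell cannot be told apart. Members were chosen by the measured difference itself. A window qualified if it held at least 50 CpGs with 10 or more reads in both libraries, and if the unweighted mean of sarcoid minus skin over those CpGs was below -5 points of methylation. The window of chromosome 6 from 7000001 to 8000000 was left out by the rule. Of 1979 windows with enough CpGs, 56 qualified, and they held 26925 of the 877053 CpGs with 10 reads in both libraries. They are called loss windows below. The threshold alone was passed by 57 windows, or 2.88% of those measured, the omitted window included. All differences between tissues inside these windows repeat what chose them and are given as descriptions, without a test. With 1 library per tissue there was no replicate, so every difference describes these 2 libraries, and intervals cover the counting of reads only.

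DNA methylation in mammals sits mostly on the cytosine of CpG pairs. Most of the genome is methylated, while dense groups of CpGs, called CpG islands and often found at promoters, are usually free of it. Tumours of several species are known for a partial loss of methylation over long, CpG-poor domains, together with gains at some islands. RRBS cuts DNA with MspI at CCGG and reads the fragment ends, so it samples dense CpGs well and leaves long stretches between them unread. A window mean therefore rests on a small part of the window. Loss windows had tested CpGs in a median of 26.5 tiles of 1 kb, with a range of 7 to 481.

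The skin library held 48650606 reads over cytosines and the sarcoid library 35970547, with median coverage per CpG of 30 and 24 reads. At the tested CpGs of the loss windows the medians were 39 reads in skin and 31 in sarcoid, against 42 and 31 in the other 1923 windows. Those other windows include the omitted one. No source used here names the genome build, so positions are printed as in the deposited files, and no gene or sequence is named at them.

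Methylation in the loss windows averaged 53.5% in skin. In sarcoid it averaged 47.7%, which is -5.82 points apart (95% counting interval -5.93 to -5.70). In the other windows the means were 43.4% and 42.3%, a difference of -1.13 points. Lower sarcoid means were found in 67.4% of the 1979 windows, whose median was -0.75 points. Window means in the 56 ran from -10.02 to -5.004 points, with a median of -6.20. Single CpGs did not all follow. Of the CpGs in loss windows, 52.9% were lower, 33.8% higher and 13.3% equal in the sarcoid, and the median CpG differed by -1.12 points. The median CpG was below 0 in 39 windows and exactly 0 in 17.

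**Figure D1:**
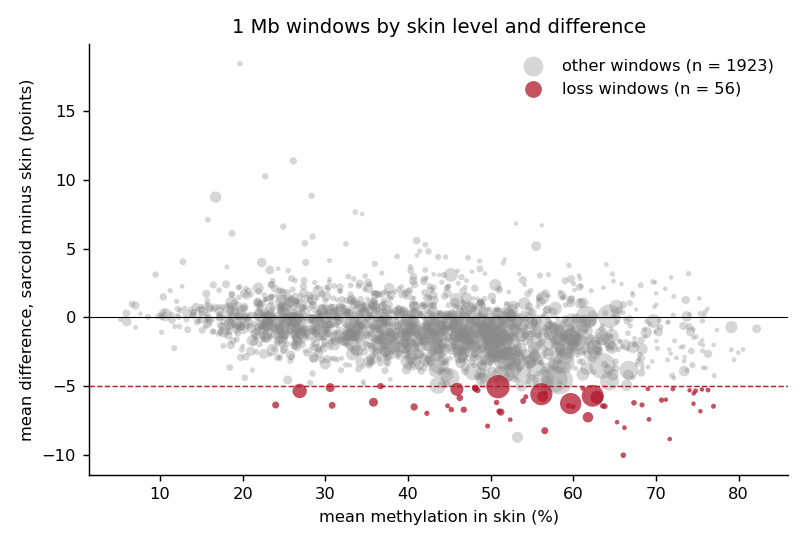
Each point is a 1 Mb window with at least 50 tested CpGs; the x axis is its mean methylation in skin (%), the y axis its mean difference, sarcoid minus skin (points), and the area grows with the number of CpGs. The 56 loss windows (red) lie under the dashed line at -5 points, where the rule put them, and their median skin level of 58.0% lies to the right of the 40.3% of the other 1923 windows (grey).

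Large differences at single CpGs were counted next. A level at least 25 points lower in the sarcoid was seen at 4020 CpGs (14.9%) of the loss windows, against 7.25% of all tested CpGs. A level at least 25 points higher was seen at 988 (3.67%), against 4.50%. Differences of at least 50 points downward were found at 751 CpGs (2.79%), against 0.994%. With every CpG of 25 points or more in either direction set aside, the mean over the remaining 21917 CpGs was -1.46 points, and in the other windows it went from -1.13 to -0.172 points. CpGs were removed by the difference itself, so nothing is read from these means. Reads of each CpG were also compared by Fisher's exact test with Benjamini-Hochberg adjustment over the genome (q below 0.01 and at least 25 points). It called 1423 CpGs of the loss windows lower and 208 higher. Over the genome this test called 1.89% of CpGs lower and 0.954% higher. It compares 2 libraries and uses the contrast that chose the windows, so nothing is read from these counts. In 50 of the 56 windows at least 1 CpG was 25 points or more higher.

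The window with the lowest mean was on chromosome 15 from 85000001 to 86000000. Its 143 CpGs averaged 66.0% in skin and 56.02% in sarcoid (-10.02 points, interval -11.9 to -8.19). Here 33 of 46 tiles were lower in the sarcoid, and 34 CpGs were at least 25 points lower against 3 higher. The tile with the largest summed loss, from 85941001 to 85942000, stood at 84.3% (Wilson 95% interval 79.9 to 88.0) over 313 skin reads and 45.9% (37.3 to 54.7) over 122 sarcoid reads. Without it the window still differed by -8.93 points, so most of the loss lay outside that tile. By strand the window differed by -4.24 points over 80 CpGs (plus) and -14.5 over 77 (minus). Its 41 CpGs with 5 to 9 reads in a library, which the rule did not use, differed by -2.72 points. Read numbers of tiles are sums over CpGs, and a read over several CpGs counts at each, which makes the intervals of tiles too narrow. Intervals of mean differences also treat CpGs as separate, so they are too narrow where CpGs share reads.

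Several of the lowest means came from windows with few CpGs. Chromosome 1 from 167000001 to 168000000 had 71.7% in skin and 62.8% in sarcoid over 60 CpGs (-8.85 points, interval -11.6 to -6.10), with 12 of 13 tiles lower. On chromosome 7 from 32000001 to 33000000 the levels were 66.2% and 58.2% over 69 CpGs (-8.02 points), with 9 of 11 tiles lower. Both kept most of the difference without their leading tile, at -7.69 and -7.71 points. That was not so on chromosome 19 from 47000001 to 48000000, where 59 CpGs differed by -7.62 points (65.3% and 57.7%) and 37 CpGs outside the leading tile by -1.06 points. Chromosome 1 from 24000001 to 25000000 went from -7.41 to -2.78 points, and chromosome 13 from 36000001 to 37000000 from -7.43 to -3.46. These are the 3 windows that moved most. The leading tile on chromosome 19, from 47493001 to 47494000, had 22 CpGs within 137 bp, of which 21 were lower, and stood at 52.2% (49.1 to 55.3) and 37.4% (34.0 to 41.1).

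A further 4 windows belong to the 10 of lowest mean. On chromosome 3 from 16000001 to 17000000, 279 CpGs averaged 56.5% and 48.3% (-8.24 points, interval -9.49 to -6.99). Its leading tile, from 16668001 to 16669000, was lower at 18 of 18 CpGs, with 83.8% (81.5 to 85.8) in skin and 47.0% (43.8 to 50.3) in sarcoid. Chromosome 20 from 49000001 to 50000000 stood at 49.6% and 41.7% (-7.90 points), and chromosome 18 from 57000001 to 58000000 at 42.3% and 35.3% (-6.98 points). In both the median CpG differed by 0, and the sarcoid was lower at 44 of 97 and 54 of 112 CpGs. In the chromosome 18 window, 9 CpGs within 42 bp in the tile from 57423001 to 57424000 stood at 46.5% (40.9 to 52.3) over 288 reads in skin and 7.06% (5.28 to 9.38) over 609 reads in sarcoid. The remaining one, on chromosome 26 from 41000001 to 42000000, is described with the CpG-rich ones.

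CpG-rich windows made up most of the CpGs. Of the 56, 11 (19.6%) held at least 500 tested CpGs, and together they had 21103 CpGs (78.4% of those in the loss windows). Among the other windows 25.7% were that rich. The 5 with the most CpGs were on chromosome 7 from 49000001 to 50000000 (4073 CpGs, -5.04 points), chromosome 3 from 32000001 to 33000000 (3646, -5.59), chromosome 8 from 24000001 to 25000000 (3591, -5.70), chromosome 25 from 36000001 to 37000000 (3364, -6.26) and chromosome 6 from 70000001 to 71000000 (1490, -5.35). Skin levels in this order were 50.9%, 56.1%, 62.3%, 59.7% and 26.9%, and sarcoid levels were 45.9%, 50.5%, 56.6%, 53.4% and 21.5%. Because of their many CpGs, the intervals were narrow: -5.30 to -4.78 on chromosome 7 and -6.61 to -5.92 on chromosome 25. In steps of 100 kb with at least 10 CpGs, the mean was lower in the sarcoid in 10 of 10 steps on chromosomes 7 and 25, 9 of 10 on chromosome 3, and 8 of 10 on chromosome 8 and 8 of 9 on chromosome 6. The size was uneven along each window.

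**Figure D2:**
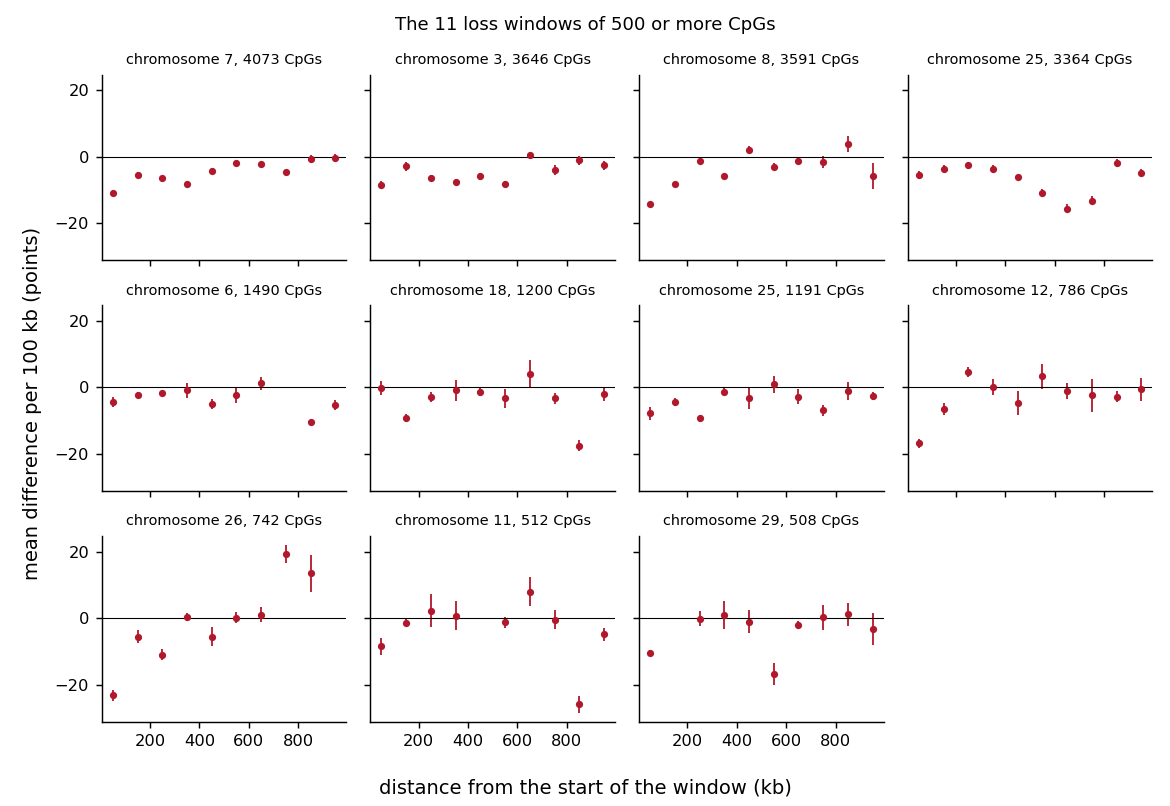
Mean difference (points) per 100 kb along the 11 loss windows with at least 500 CpGs, ordered by CpG number, against distance from the window start (kb); bars are 95% counting intervals and only steps with at least 10 CpGs are drawn. Most steps lie below 0, with separate lows such as -15.7 points on chromosome 25, -17.6 on chromosome 18 and -25.9 on chromosome 11, while chromosome 26 runs from -23.1 to 19.3 points.

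Chromosome 25 showed the longest of these lows. Its 3 adjoining steps from 36500001 to 36800000 differed by -10.9, -15.7 and -13.2 points, while the other 7 lay between -6.24 and -1.94. From 36600001 to 36700000 the level was 59.2% in skin and 43.5% in sarcoid over 233 CpGs, with 31 of 38 tiles lower, 21 of them in an unbroken series of 40 kb from 36660001 to 36700000. On chromosome 8 the low lay at the start of the window: the first 100 kb, from 24000001 to 24100000, differed by -14.3 points over 710 CpGs (70.6% and 56.3%), with 61 of 72 tiles lower, and the next 100 kb by -8.30 points. Chromosome 7 was lowest in its first 100 kb too, at -10.9 points over 526 CpGs, with 46 of 56 tiles lower.

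In the other 8 CpG-rich windows the lowest step lay between -25.9 points on chromosome 11 and -8.50 on chromosome 3 from 32000001 to 32100000. On chromosome 26 the first 100 kb, from 41000001 to 41100000, stood at 71.2% and 48.0% (-23.1 points over 183 CpGs, interval -24.7 to -21.5), with 28 of 32 tiles lower. A higher level stood in the same window. From 41700001 to 41800000 it was 61.3% in skin and 80.5% in sarcoid over 50 CpGs (19.3 points). Chromosome 18 from 3800001 to 3900000 stood at 70.1% and 52.5% (-17.6 points over 182 CpGs), and chromosome 12 from 1000001 to 1100000 at 71.0% and 54.3% (-16.7 points over 248 CpGs). On chromosome 11 from 36800001 to 36900000, 69 CpGs in 8 tiles stood at 45.4% and 19.5% (-25.9 points), and 7 of the 8 tiles were lower. These stretches were singled out after their values were seen.

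Stretches of this strength were counted over the genome. Of 5130 steps of 100 kb with at least 50 CpGs, 66 (1.29%) had a mean below -10 points. The loss windows held 18 of them among 97 such steps, in 14 windows, and 48 lay elsewhere among 5033 steps (0.954%). Both the stretch and the window were chosen on the same difference, so nothing is read from these shares. In 17 of the 18 more than 50% of the tiles were lower, with a median of 82.1%. When the tile with the largest summed loss was left out, 8 of the 18 stayed below -10 points and the other 10 lay above it, with -5.37 points the highest. Together the 18 held 3994 CpGs with a mean of -13.6 points. The 13393 CpGs in the rest of the same 14 windows differed by -3.41 points, and without the 18 stretches the mean over all loss windows was -4.46 points.

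How much a single short stretch carried was measured by leaving out, in each window, the 1 kb tile with the largest summed loss. The median window moved from -6.20 to -4.56 points. Below -5 points remained 18 of 56 windows, and 52 stayed below -2.5 points. None came out above 0, the highest being -1.06 points on chromosome 19. The same step moved the other windows by a median of 0.543 points, against 1.41 in the loss windows. Leaving out the 100 kb of largest loss put 12 windows below -5 points and 55 below 0, with the highest at 0.53 points. The tile was chosen for its loss, so nothing is read from the shift as such.

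**Figure D3:**
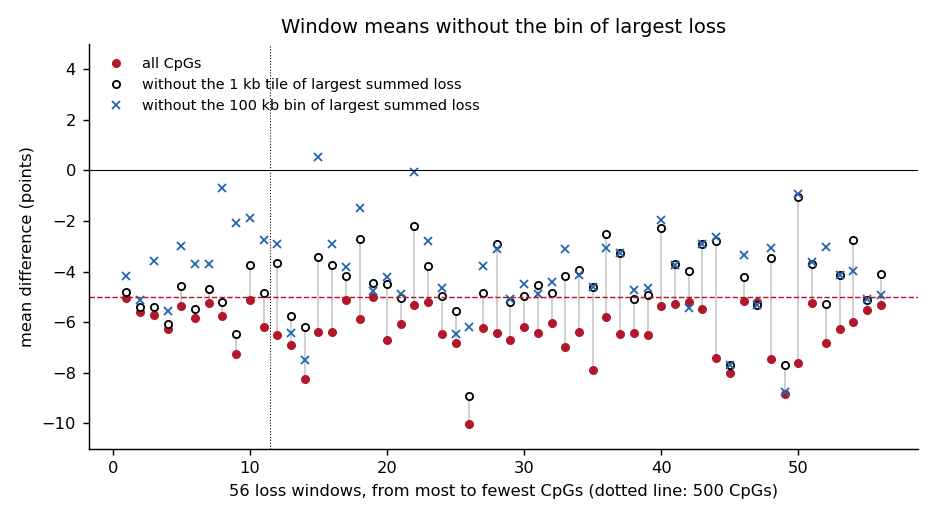
Mean difference (points) of the 56 loss windows with all CpGs (red), without the 1 kb tile of largest summed loss (open) and without the 100 kb bin of largest summed loss (crosses), ordered from most to fewest CpGs. Left of the dotted line at 500 CpGs the open circles lie within 1.38 points of the red ones, and right of it they move by up to 6.56 points.

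Windows rich and poor in tested CpGs are given apart. In the 11 CpG-rich windows the leading tile moved the mean by 0.184 to 1.38 points, and 6 of 11 stayed below -5 points. A median of 7 tiles (range 2 to 29), out of 70 to 481, was needed to sum to 50% of the net loss. In the 45 windows with fewer CpGs the shift was up to 6.56 points, and 12 of 45 stayed below -5 points. There 41 of 45 reached 50% of the net loss with 3 tiles or fewer, out of 7 to 64. As a share of the tiles of a window, the median needed was 4.8% in the CpG-rich windows and 9.09% in those with fewer CpGs. Tiles were ranked by their loss and no background from other windows is given, so nothing is read from these counts. The 3 windows that moved least were on chromosome 19 from 52000001 to 53000000 (-5.20 to -5.33 points without the tile), chromosome 25 from 36000001 (-6.26 to -6.08) and chromosome 3 from 32000001 (-5.59 to -5.39).

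Leading tiles were short groups of CpGs, and 38 of 56 stood above 60% in skin. They were picked for the largest summed loss, so nothing is read from their levels or from how many of their CpGs were lower. The tested CpGs of these 56 tiles spanned a median of 259 bp (32 to 978), and in 28 tiles all tested CpGs were lower in the sarcoid. Sarcoid levels, as means over CpGs, were at most 20% in 18 of them, and the skin levels of those 18 ran from 27.2% to 79.6% with a median of 46.8%. An example with many CpGs is the chromosome 6 tile from 70894001 to 70895000, where 29 of 29 CpGs were lower, with 50.3% (48.0 to 52.5) over 1866 reads in skin and 7.37% (6.19 to 8.75) over 1601 in sarcoid. On chromosome 8 from 24191001 to 24192000, 26 of 26 were lower, with 68.8% (66.1 to 71.4) and 21.1% (18.5 to 24.0). The tile of chromosome 7 from 49079001 to 49080000 stood at 66.8% (64.2 to 69.3) and 23.7% (21.7 to 25.9), lower at 25 of 25 CpGs. On chromosome 25 from 36384001 to 36385000 the levels were 66.0% (62.1 to 69.7) and 26.4% (23.3 to 29.9), and 20 of 21 CpGs were lower. The tile of chromosome 3 from 32323001 to 32324000 stood at 75.5% (73.2 to 77.7) and 35.4% (32.3 to 38.5), with 22 of 23 lower.

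Within the loss windows the difference was not limited to CpG-poor tiles. The same CpGs chose the windows, so the values by class only describe them. Density was taken as the number of CpGs listed in either library per 1 kb tile. In tiles with 1 to 5 CpGs, the sparsest class, the loss windows averaged 61.7% in skin and 56.7% in sarcoid (-4.94 points, interval -5.23 to -4.64). Tiles with 6 to 10 CpGs differed by -5.44 points, those with 11 to 20 by -6.65 (54.1% and 47.4%) and those with 21 to 40 by -6.34 (43.3% and 36.9%). Only the densest class, over 40 CpGs, had a smaller difference, at -2.76 points from a skin level of 26.3%. In the other windows the difference shrank with each denser class, from -1.88 points in the sparsest through -1.24, -1.09 and -0.569 to -0.222 in the densest. The densest class thus differed least in both sets. Skin levels of dense tiles were higher in the loss windows, 43.3% against 23.3% in tiles with 21 to 40 CpGs.

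**Figure D4:**
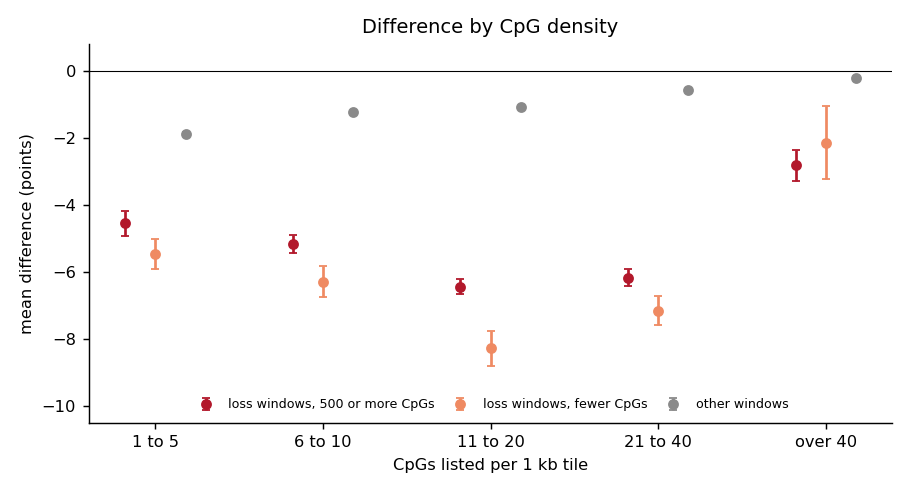
Mean difference (points) of CpGs by the number of CpGs listed in their 1 kb tile, for the 11 loss windows of 500 or more CpGs (dark red), the 45 with fewer (orange) and the other windows (grey); bars are 95% counting intervals. Both kinds of loss window are lowest in tiles of 11 to 20 CpGs, while the grey points come closer to 0 with density, from -1.88 to -0.222.

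Density was also read at a fixed range of skin level. Among CpGs above 60% in skin, whose mean skin level lay between 84.8% and 86.0% in every class, the loss windows differed by -8.06 points in the sparsest class, -8.36, -10.3 and -10.997 in the next 3, and -9.58 in the densest. In the other windows the same CpGs differed by -5.21, -4.20, -4.47, -4.41 and -3.44 points. Choosing CpGs by a high skin level draws the difference downward in both sets. The sparse and dense classes were lower in most single windows as well. With at least 10 CpGs of the class, 48 of 54 windows were lower in the sparsest class and 37 of 39 in tiles of 21 to 40 CpGs. Of the other windows, 1282 of 1893 and 931 of 1587 were lower. The rule asked for a low mean, so nothing is read from these counts.

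Fewer dense tiles of the loss windows were unmethylated. Of 305 tiles with over 20 listed CpGs and at least 3 tested ones in the loss windows, 33.1% stood at 20% or less in both libraries, against 65.1% of 9784 in the other windows. The median dense tile had 51.5% in skin and 37.0% in sarcoid, and 2.28% and 2.32% in the other windows. At least 25 points lower were 29 of the dense tiles (9.51%) and at least 25 points higher were 3 (0.984%), against 0.981% and 0.879% in the other windows. Over tiles of any density with 3 tested CpGs, 307 of 3112 (9.87%) were at least 25 points lower and 46 (1.48%) higher, beside 3.95% and 2.39% of all tiles tested. Skin levels entered the difference that chose the windows, so the higher skin level is not an independent trait of them.

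The shift in level was seen from middle to high methylation. CpGs at 20% or less made up 26.6% of those in the loss windows in skin and 32.9% in sarcoid. CpGs at 80% or more went from 35.4% to 30.3%, and those between from 37.9% to 36.8%. In the other windows the share at 20% or less was 40.6% and 42.3%, and the share at 80% or more 28.7% and 28.4%. To avoid counting the same reads in the class and in the difference, the skin reads of CpGs with at least 20 were split, with one part setting the class and the other the difference. CpGs at 60% to 80% then differed by -10.6 points in the loss windows and -4.22 in the others, and those above 80% by -6.69 and -2.98. At 20% to 40% the signs were opposite, -4.41 points in the loss windows and 2.503 in the others. CpGs at 20% or less differed by -0.19 and 0.418 points. With split reads each of the 5 classes was thus below 0 in the loss windows, though the class at 20% or less only slightly and without an interval. With unsplit reads that class was higher in the sarcoid. Its 7170 CpGs in the loss windows differed by 1.10 points (interval 0.96 to 1.24), against 1.06 in the other windows. The windows were chosen on these same reads, so nothing is read from the shared sign.

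The windows did not adjoin each other. No loss window shared a border with another (count 0). The 98 measured windows beside them had a median difference of -0.823 points, with 65.3% lower in the sarcoid, against -0.692 points and 66.5% over all windows outside the 56. Beside the 11 CpG-rich windows the median of 21 neighbours was -1.89 points, and 18 of 21 were lower. In steps of 100 kb with at least 10 CpGs, the median was -4.22 points inside the windows, where 249 of 296 steps (84.1%) were lower. In the first 100 kb on each side it was -1.05 points over 58 steps, and 22.4% of these were below -5 points. Farther out, to 1 Mb, it was -0.668 points over 574 steps, with 16.9% below -5. Over the steps of all other windows 13.4% were below -5 points. The median of all such steps of the genome was -0.545. The windows were chosen for a low mean, so nothing is read from the step at the border.

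**Figure D5:**
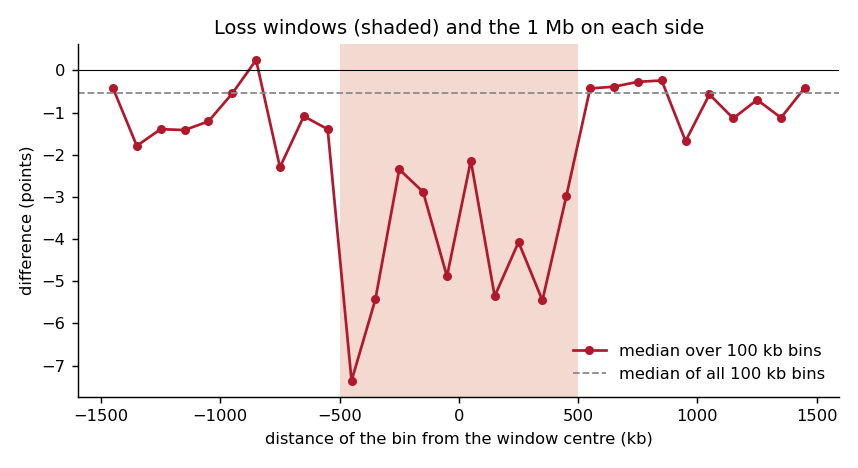
Median difference (points) of 100 kb bins with at least 10 CpGs, against distance of the bin from the centre of the loss window (kb), over the 56 windows; the shaded part is the window, chosen for a low mean, and the dashed line is the median of all 12822 bins, -0.545 points. The medians inside lie between -7.36 and -2.14 points and those outside between -2.30 and 0.25, while single bins vary more widely.

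Likeness between tiles faded within the windows. Over pairs of tiles with at least 3 CpGs, differences taken from the mean of the set had a correlation of 0.28 for adjoining tiles (1083 pairs), 0.133 at 2 to 10 kb (8002 pairs), 0.0375 at 11 to 100 kb and -0.0166 beyond that. In the other windows the values were 0.19, 0.0616, 0.025 and 0.0113. Pairs share windows, libraries and, where adjoining, fragments, so these values only describe the scale, and those beyond 10 kb are too weak to read.

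CpGs that the rule did not use gave a partly independent measure from the same libraries. CpGs with 5 to 9 reads in a library and at least 5 in the other numbered 6385 in the loss windows and differed by -4.22 points (interval -4.66 to -3.78), against -0.974 in the other windows. They were lower on average in 40 of 56 windows (71.4%), against 58.6% of the other windows. Many lay in the same tiles as tested CpGs. In tiles without a tested CpG, 2101 CpGs differed by -1.93 points (interval -2.69 to -1.17), against -0.742 elsewhere. By windows they were lower in 27 of 56 (48.2%), with a window median of 0.351 points, against 1052 of 1910 other windows (55.1%), so lower windows were not more frequent than elsewhere. In the 11 CpG-rich windows these CpGs differed by -3.53 points (-4.52 to -2.54) and were lower in 7 of 11. In the 45 others the mean was 0.411 points (interval -0.783 to 1.60), lower in 20 of 45. Both intervals cover the counting of reads only and leave out the spread between windows. The difference between the sets of windows was not tested.

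A second such measure chose windows on alternate bins of 10 kb and read the difference in the bins between. Of 1768 windows with at least 25 CpGs in each set of bins, 94 were below -5 points in the even bins, with a median of -5.82 points. The odd bins of these windows had a median of -1.14 points, and 17 of 94 were below -5. Chosen on the odd bins, 96 windows had a median of -6.64 points, and in their even bins -2.19 points, with 17 below -5. Over all 1768 windows the medians were -0.679 and -0.717 points, and 5.43% and 5.32% were below -5. Most of the difference that chose a window thus did not carry over to the bins between.

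The size of a window bore on how often it passed. Of windows with 50 to 99 CpGs, 22 of 353 (6.23%) were loss windows, and the standard deviation between window means was 2.45 points. Of those with 200 or more but under 500 CpGs, 9 of 661 (1.36%) passed, with a standard deviation of 1.96. Windows with 1000 or more CpGs passed in 7 of 196 cases (3.57%). Their standard deviation was smallest, at 1.58 points, and their median was lowest and so nearest to the threshold, at -1.49. None of these richest windows (count 0) had a mean above 5 points, against 3 of 353 (0.85%) of the smallest. Counting intervals, too narrow where CpGs share reads, lay wholly below -5 points in 22 of the 56 windows and held -5 in 34. Intervals of all 56 lay below 0, which follows from the threshold, since the widest reached 2.99 points to each side of its mean.

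Strands were read apart as a check of the merging. With at least 20 CpGs per strand, 56 of 56 windows were lower in the sarcoid on each strand, and the mean over CpGs was -5.79 points on the plus strand and -5.81 on the minus strand. Both strands served in the choice, so this does not stand apart from it. On the plus strand alone 28 of the 56 met the rule, and on the minus strand alone 30, with the minimum of 50 CpGs kept. The strands of 1 CpG were 30 points or more apart at 13.6% (skin) and 18.5% (sarcoid) of loss-window CpGs read on both strands, against 12% and 16.9% in the others. CpGs of the loss windows with strands closer than that in both libraries differed by -5.71 points.

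Depth moved with the windows. The depth ratio, as log2 of sarcoid over skin reads in a window and set to 0 at the median window, was -0.355 to 0.914 in the loss windows with a median of 0.142, against a median of -0.00525 in the others, and 41 of 56 were above 0. The sarcoid library was relatively deep on 10 chromosomes, which are 5, 6, 7, 12, 18, 21, 22, 25, 28 and 29. These held 23 of the 56 windows (41.1%) and 28.4% of all windows. Loss windows were 4.09% of windows there and 2.33% on the other chromosomes. The mean over CpGs of loss windows was -5.68 points on the deeper chromosomes and -5.99 on the rest, but all of these windows were chosen to lie below -5 points, so the likeness follows from the choice. The part of depth in the number of windows was not tested. Weighted by reads in place of CpGs, the loss windows differed by -8.24 points. That weighting lowered windows elsewhere too, as 307 in place of 56 were then below -5 points.

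Position was otherwise mixed. Loss windows lay on 25 of 31 chromosomes, with the most on chromosome 19 (6 of 49 windows, 12.2%) and chromosome 7 (5 of 90, 5.56%). Within 3 Mb of the first position or of the last listed CpG of a chromosome lay 4 of the 56 (7.14%), against 9.15% of the other windows. CpGs listed in only 1 of the libraries made up a median of 15.5% per loss window, against 14.1%.

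At the threshold the windows changed little from one side to the other. Just inside lay chromosome 20 from 5000001 to 6000000 (217 CpGs, 36.7% and 31.7%, -5.004 points, interval -6.09 to -3.92), chromosome 7 from 49000001 (-5.04) and chromosome 11 from 36000001 to 37000000 (512 CpGs, -5.10). Just outside lay chromosome 3 from 68000001 to 69000000 (56 CpGs, 37.0% and 32.0%, -4.98 points, interval -7.37 to -2.60), chromosome 8 from 12000001 to 13000000 (970 CpGs, -4.97) and chromosome 13 from 29000001 to 30000000 (906 CpGs, -4.95).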

How the data were processed

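RRBS libraries of 1 sarcoid and 1 skin sample were each sequenced on a single lane with 75 bp single-end reads, per the labels' protocols. Tools named, per the submitters' processing notes, are methylKit, BSMAP and FastQC, and their settings and genome build were not given in the sources used here. The deposited files list, per the file headers, a read count for each cytosine of a CpG with the percent reading C and T. Methylated reads were coverage times that percent, rounded. Strands were merged by moving minus-strand positions by 1 and summing reads.

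Windows, 1 kb tiles and bins are fixed intervals, and means give each CpG equal weight. Intervals of mean differences are 95% and sum the binomial variance of each CpG, with 0.5 reads added to each state. CpGs on the same read are treated as separate, which makes these intervals too narrow. Intervals of tile levels are Wilson intervals. All of these cover counting error only, because amplified reads with no molecular identifiers need not be separate molecules. Fisher's exact test was two-sided. Scripts ran under Python 3.11.15 with SciPy 1.17.1, numba 0.67.0, NumPy 2.4.6, pandas 2.3.3 and matplotlib 3.10.9, and were tested on simulated data.

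The windows and measures were chosen with earlier results of these data known. Windows named were the 10 of lowest mean, the 5 with most CpGs, the 3 on each side of the threshold, and the 3 that moved most and least without their leading tile. The 100 kb stretches were added after values were seen. The authors' table of chromosome 1 rests on the same reads and was not used here.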

Additional observations from a re-analysis of the deposited data

How the results depend on the processing

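No paired analysis was possible because each tissue had 1 library. The number of windows below -5 points, 56, stayed between 46 and 62 with a minimum of 5 or 20 reads, without the 0.1% of CpGs with most coverage, on either strand alone or with windows shifted by 500 kb. Which windows passed changed more. With a minimum of 5 reads 38 of the 56 were among 59 that passed, with 20 reads 37 among 57, on the plus strand 28 among 62 and on the minus strand 30 among 46. The number was 123 with equal weight per tile, 307 weighted by reads, 94 at 20 CpGs per window, 34 at 100 CpGs per window and 7 by the median CpG.

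In the 56 windows the mean difference of -5.82 points became -5.51 with a minimum of 5 reads, -5.60 with equal weight per tile, -8.24 weighted by reads and -5.99 without the chromosomes of deeper sarcoid coverage. In settings chosen after seeing the data it was -6.27 with equal weight per window, -6.41 without the windows of 500 or more CpGs, -4.46 without the 100 kb stretches below -10 points, -4.22 at CpGs with 5 to 9 reads in a library and -1.93 at those of them in tiles without a tested CpG. No setting turned its direction, but the windows were chosen for a low mean and most settings reuse the CpGs that chose them. Nothing is read from the shared sign. The 18 windows below -5 points without their leading tile became 35 when weighted by reads and 12 to 25 in the other settings. The 1423 CpGs called lower by Fisher's exact test numbered 0 at 10 reads per CpG, where fewer reads limit the test, with 1354 in either direction at an unadjusted p below 0.05, of which 1121 were lower, and 1007 to 2108 in the other settings. The cause of the other changes was not tested.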
